A study of Mus musculus with 3 samples.

Results

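Genes of 7 families of transcription factors (Sox, Klf, Fox, Hox, Egr, Gata and Tead) were examined as neighbours of the sites that FLAG-tagged Runx3 occupied in mouse chondrocytes. A gene was a member if its symbol had the family name and number (for Fox, the letters a to s; for Hox, the clusters a to d) and if the authors listed it next to at least 1 window of the peak list. This rule gave 14 of the 1966 neighbouring genes, next to 16 of the 1000 windows. The 14 members were 10.8% (6.52 to 17.3) of the 130 protein-coding genes of these families in GENCODE, beside 7.98% of all 22225 protein-coding gene symbols. Fox genes made up 8 of the 14 members, Klf genes 3, and Sox, Hox and Egr genes 1 each, whereas no Gata or Tead gene was a neighbour.

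Chromatin immunoprecipitation followed by sequencing was carried out on superficial zone (SFZ) chondrocytes, the cells of the joint-facing layer of articular cartilage, from 5-day-old C57BL/6 mice (C57BL/6J in the methods). All 3 libraries came from cells lipofected with vectors for 3xFLAG-tagged Runx3, and there was 1 library for each of RUNX3-FLAG (antibody against FLAG, clone M2), IgG (an anti-mouse IgG antibody) and input (no antibody). The tagged protein was supplied by a vector on top of that of the wild-type cells, so the windows describe transfected and not endogenous Runx3. Without replicates there was no error between libraries and no test of a condition. Read depth was unknown, and no levels of RNA were among the values used, so that neither the expression of these genes nor the markers of SFZ cells could be examined.

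A window is an entry of 101 bp in the authors' list, ranked from 1 (highest) to 1000. Its neighbours are the closest gene on each side up to 10 Mb away, plus a gene that holds it. Distances run from the window centre to the transcription start site (TSS), with minus for upstream. The authors deposited a second list of 1000 windows of the same RUNX3-FLAG library with IgG in its name, called the IgG-named list here. The study describes many more Runx3 peaks than these 1000, and peaks of lower rank were not analysed here. A gene without a window, and the distance to its closest window, therefore refer to the top 1000 alone, and a peak of lower rank may lie nearer. Ranges in parentheses after a share or a median are 95% intervals (Wilson for shares, order statistics for medians). They cover counting error over genes or windows only, and neighbouring genes that share a window are not independent.

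Runx proteins bind DNA with Cbfb as a partner and act with other factors at enhancers and promoters. The families examined here include many of the factors that set cell identity: Sox factors (among them Sox9, Sox5 and Sox6, the core regulators of chondrocytes), Hox factors, which give segments of the body their identity, forkhead (Fox) factors, zinc-finger factors of the Klf, Egr and Gata families, and Tead factors, the DNA-binding partners of Yap1. Some genes of such factors lie alone in long stretches without other genes, where regulatory elements can sit far from the promoter. Others, such as the Hox genes, lie in clusters.

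The windows for which a member had the nearest TSS are shown, since in these no other RefSeq TSS of the authors' tables lay closer. Each is given 5′ to 3′ on the + strand of mm9, from 6 of the 8 such windows of the main list and 1 of the IgG-named list. Capitals mark the Runx motif on either strand, which is the word TGTGGT, where the second T, the last T or both may be C.
Foxd1, rank 344, chr13:99262605-99262705: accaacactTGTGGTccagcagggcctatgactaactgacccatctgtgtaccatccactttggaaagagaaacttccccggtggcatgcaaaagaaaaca
Foxd1, rank 470, chr13:99161293-99161393: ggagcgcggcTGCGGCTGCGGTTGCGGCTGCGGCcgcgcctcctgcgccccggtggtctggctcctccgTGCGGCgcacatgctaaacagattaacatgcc
Foxc1, rank 490, chr13:31856457-31856557: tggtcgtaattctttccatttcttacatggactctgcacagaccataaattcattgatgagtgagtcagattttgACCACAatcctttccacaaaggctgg
Hoxb1, rank 569, chr11:96275020-96275120: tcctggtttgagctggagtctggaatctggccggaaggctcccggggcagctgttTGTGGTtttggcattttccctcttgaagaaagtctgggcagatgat
Klf6, rank 847, chr13:6192401-6192501: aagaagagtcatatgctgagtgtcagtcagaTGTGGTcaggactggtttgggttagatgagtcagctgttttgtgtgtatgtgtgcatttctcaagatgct
Sox4, rank 930, chr13:29257173-29257273: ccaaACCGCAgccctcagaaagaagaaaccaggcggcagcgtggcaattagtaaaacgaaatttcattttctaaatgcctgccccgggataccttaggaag
Foxo1, rank 706 of the IgG-named list, chr3:52047695-52047795: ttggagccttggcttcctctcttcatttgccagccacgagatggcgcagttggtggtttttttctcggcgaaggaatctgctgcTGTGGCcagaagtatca
The window of Foxd1 at rank 470 carried 5 motifs, of which 4 followed each other directly as a repeat, and 71.3% of its bases were G or C. The window next to Hoxb1 had its single motif 7.5 bp from the centre, the closest of all 16 member windows. In the Sox4 window the motif lay 43.5 bp from the centre, near the edge.

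Among the member windows, 6 had no Runx motif, and in each of these a motif lay within 50 bp of an edge. For 4 of them, the window widened by 50 bp on each side (201 bp) is shown, again with the motif in capitals and on the + strand of mm9. The windows of Egr2 and of Foxk1 at rank 766 are the other 2 with a member at the nearest TSS, that of Foxk1 at rank 245 lay inside the member itself, and that of Klf10 was the best-ranked Klf window.
Egr2, rank 467, widened, chr10:66999947-67000147: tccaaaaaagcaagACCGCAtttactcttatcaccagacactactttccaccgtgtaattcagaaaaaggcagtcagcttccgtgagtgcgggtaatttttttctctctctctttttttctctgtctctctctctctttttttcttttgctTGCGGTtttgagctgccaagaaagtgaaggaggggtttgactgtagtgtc
Foxk1, rank 766, widened, chr5:142862823-142863023: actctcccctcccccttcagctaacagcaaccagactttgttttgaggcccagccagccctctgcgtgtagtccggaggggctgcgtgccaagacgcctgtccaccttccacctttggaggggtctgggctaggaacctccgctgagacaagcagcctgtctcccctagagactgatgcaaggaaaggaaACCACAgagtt
Foxk1, rank 245, widened, chr5:142916798-142916998: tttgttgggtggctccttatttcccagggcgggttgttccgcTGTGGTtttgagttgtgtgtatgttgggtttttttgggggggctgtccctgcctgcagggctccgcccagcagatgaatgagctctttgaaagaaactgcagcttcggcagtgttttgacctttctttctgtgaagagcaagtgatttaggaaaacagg
Klf10, rank 132, widened, chr15:38400450-38400650: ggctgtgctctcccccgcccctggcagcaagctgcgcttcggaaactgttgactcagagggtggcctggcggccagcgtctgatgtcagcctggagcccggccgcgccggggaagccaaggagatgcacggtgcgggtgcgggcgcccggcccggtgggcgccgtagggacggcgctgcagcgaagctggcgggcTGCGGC
The nearest motif was 53.5 bp from the centre of the Egr2 window and 55.5 bp from that of Foxk1 at rank 245. At Klf10 it was 97.5 bp away.

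Sox factors bind DNA by an HMG box, and 1 of the 18 Sox genes was a neighbour. Sox4, a SoxC factor of progenitor cells in many tissues, had the nearest TSS of the window at rank 930, which lay 211.7 kb upstream of it on chromosome 13. The authors' separate list of nearest genes did not name Sox4 for this window. The window was outside genes, in a stretch of 372 kb between the flanking genes, and the IgG-named list did not hold it. Sox4 was therefore the only member found in the main list alone.

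The 3 Sox factors of chondrocytes named in the study were next to none of the 1000 windows. The closest main-list window was 2287.5 kb from Sox9 (rank 425), 581.9 kb from Sox5 (rank 133) and 1265.1 kb from Sox6 (rank 882). Over all 18 Sox genes the median distance to the closest window was 947.5 kb, beside 660 kb over all protein-coding genes. None of the 18 had a window within 100 kb, beside 14.5% of all protein-coding symbols. A count of 0 of 18 allows a share of up to 16.7% (3 counts of the total). The Sox genes therefore cannot be told from all genes by this share. The 17 Sox genes without a neighbouring window also had none in the IgG-named list. The nearest of them to a window were Sox7 at 262.0 kb and Sox8 at 262.6 kb, and the farthest was Sox3 on chromosome X at 50664.1 kb.

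Klf factors bind GC-rich promoter elements by zinc fingers, and 3 of the 17 Klf genes (17.6%, 6.19 to 41.0) were neighbours. Klf10, an early response gene of TGF-beta signalling, was next to the window at rank 132, which lay 170.1 kb upstream of it at chr15:38400500-38400600. Another gene, Azin1, had the nearest TSS there, at 48.5 kb. Klf9, a factor induced by steroid and thyroid hormones, was next to the window at rank 710, 225.2 kb upstream of it. That window lay in an intron of Trpm3. Klf6, a broadly expressed member, had the nearest TSS of the window at rank 847, although that TSS was 331.7 kb away. This window lay in the longest stretch between genes among the member windows, 678 kb.

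The lists differed by the most genes in the Klf family. The IgG-named list held 5 Klf genes with 6 windows, among them all 3 of the main list. It added Klf4, a factor that maintains pluripotent and epithelial cells, with a window at rank 343 that was 861.6 kb upstream. It also added Klf13 (rank 995, 126.2 kb upstream) and a further window of Klf10 (rank 921, 217.6 kb upstream). In none of these 3 windows did the Klf gene have the nearest TSS. The authors' separate list of nearest genes nevertheless named Klf13 for the window at rank 995. The further Klf10 window was 930 bp from the TSS of Azin1 and was labelled as 5'UTR of Azin1. In the authors' tables this label also covers introns before the coding start. Of the 136 main-list entries with this label, the window centre was in a deposited exon in 54.

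Among the 14 Klf genes without a main-list neighbour, 2 still had a window within 100 kb with other genes in between, Klf16 at 44.8 kb and Klf1 at 45.4 kb. The closest window to Klf2 was 1046.4 kb away.

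Fox factors bind DNA by the forkhead domain. Of the 42 Fox genes, 8 (19.0%, 9.98 to 33.3) were neighbours of 10 windows, and the same 8 were found in the IgG-named list. The lower bound was above the 7.98% of all protein-coding symbols, but this was 1 of 7 families compared. By the nearest GENCODE TSS, 4 of the 1000 windows belonged to Fox genes, where 2.62 would follow from the share of the genome nearest to their TSS. Among the member windows, only those at ranks 470, 490 and 766 had a Fox gene there. The count of 4 thus includes a window of a Fox gene outside the rule.

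Foxb1, a factor of the developing brain, had the best-ranked window of all members. The window at rank 111 (chr9:69306139-69306239) was 302.6 kb downstream of its TSS, but the nearest TSS was that of Anxa2, 4.70 kb away, and GENCODE placed the window in an Anxa2 intron. Its other window, at rank 337, was 226.9 kb upstream of Foxb1 and 1.71 kb from the TSS of Bnip2. Both windows of Foxb1 were thus close to the TSS of another gene.

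Foxk1, a factor of muscle progenitors and of metabolic control, also had 2 windows, at ranks 245 and 766. The better-ranked of them lay in an intron of Foxk1, 39.4 kb downstream of its TSS, with the TSS of C330006K01Rik nearer at 23.0 kb. It was the only window that the authors' tables placed within a member. The other lay 14.5 kb upstream of Foxk1, which had the nearest TSS.

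Foxd1, a factor of kidney stroma and of the retina, had 2 windows downstream of it and outside genes. They were 37.1 kb (rank 470) and 138.5 kb (rank 344) from its TSS, within the same stretch of 278 kb. Foxd1 had the nearest TSS of both in the authors' tables, but GENCODE placed the predicted gene Gm10320 at 699 bp from the window at rank 344.

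Foxc1 and Foxf2, which act in mesenchyme (Foxc1 in the skeleton and the eye, Foxf2 in the palate and gut), flanked 1 window at rank 490. It lay 42.0 kb upstream of Foxc1, which had the nearest TSS, and 138.9 kb downstream of Foxf2. Foxq1, the third Fox gene of this cluster, was not a neighbour and was 206.5 kb away.

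The other 3 Fox members each neighboured 1 main-list window that was nearer to the TSS of another gene. Foxo1, a target of insulin signalling with a role in cartilage maintenance, was 324.4 kb from the window at rank 431, which was outside genes in the authors' tables and in an intron of Maml3 in GENCODE. Foxn1, the factor of thymic epithelium, was 25.5 kb from the window at rank 496, in an intron of Slc13a2. Foxd3, a factor of neural crest, was 462.3 kb from the window at rank 372, the longest distance of a pair. The window at rank 210 was closer to Foxd3, at 172.8 kb, but behind another gene. The window at rank 372 was 83 bp from the TSS of Atg4c, a gene of autophagy. The IgG-named list held a further Foxo1 window at rank 706, which was 24.6 kb upstream of Foxo1 with no nearer TSS, and which the main list did not hold.

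The 34 Fox genes without a neighbouring window by symbol included Foxo3 (closest window at 1264.2 kb), Foxp1 (1792.9 kb), Foxp2 (8099.3 kb) and Foxa2 (475.3 kb). Foxj1, Foxr1 and Foxd4 had a window within 100 kb, at 61.3, 58.0 and 93.9 kb, behind another gene. Foxs1 stood in the authors' tables under its older symbol Fkhl18 (gene ID 14239). It was next to the windows at ranks 488 and 604, 5.5 and 18.5 kb downstream of its TSS on chromosome 2. Foxf1 stood there as Foxf1a (gene ID 15227), next to the window at rank 820, 121.7 kb upstream of it. Both lie outside the rule by symbol, and their 3 windows were in the IgG-named list as well. With genes matched by RefSeq gene ID in place of symbol, 16 of 133 family genes (12.0%) had a window, beside 1946 of 21896 protein-coding genes (8.89%).

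Hox genes lie in 4 clusters, and 1 of the 39 Hox genes (2.56%, 0.454 to 13.2) was a neighbour. Hoxb1, a factor of hindbrain identity at the end of the Hoxb cluster, had the nearest TSS of the window at rank 569 (chr11:96275020-96275120), 48.0 kb downstream of it. This window was also the closest to every other Hoxb gene, from Hoxb2 at 62.1 kb to Hoxb13 at 219.4 kb. The Hoxc genes were 187.2 to 300.5 kb from the window at rank 778, the Hoxd genes 1314.0 to 1408.7 kb from that at rank 657, and the Hoxa genes 2695.7 to 2798.3 kb from that at rank 335. No window centre was closer than 47.5 kb to a Hox TSS of GENCODE. Stretches nearest to a Hox TSS made up only 0.0276% of the genome.

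Egr factors are zinc-finger products of immediate early genes. Of the 4 Egr genes, Egr2, which acts in the hindbrain and in myelination, had a window at rank 467 (chr10:66999997-67000097). It was the only member window within 5 kb of the TSS of its own member, 579 bp upstream in the authors' tables. GENCODE, which has further Egr2 transcripts, placed it 570 bp from a TSS and in an intron of Egr2. The closest windows to Egr3, Egr1 and Egr4 were at 256.2, 480.9 and 958.7 kb.

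None of the 6 Gata genes and none of the 4 Tead genes was a neighbour in either list of 1000. The Wilson intervals reached 39% for Gata and 49% for Tead, and the limit that a count of 0 allows (3 counts of the total) was 50% of 6 and 75% of 4, so these families cannot be told from the others by their share. Gata2, a factor of blood progenitors, was 306.1 kb and Gata4, of the heart, 375.9 kb from the closest window. Tead1, Tead2, Tead3 and Tead4 were 388.7, 445.5, 681.8 and 945.1 kb away.

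**Figure D1:**
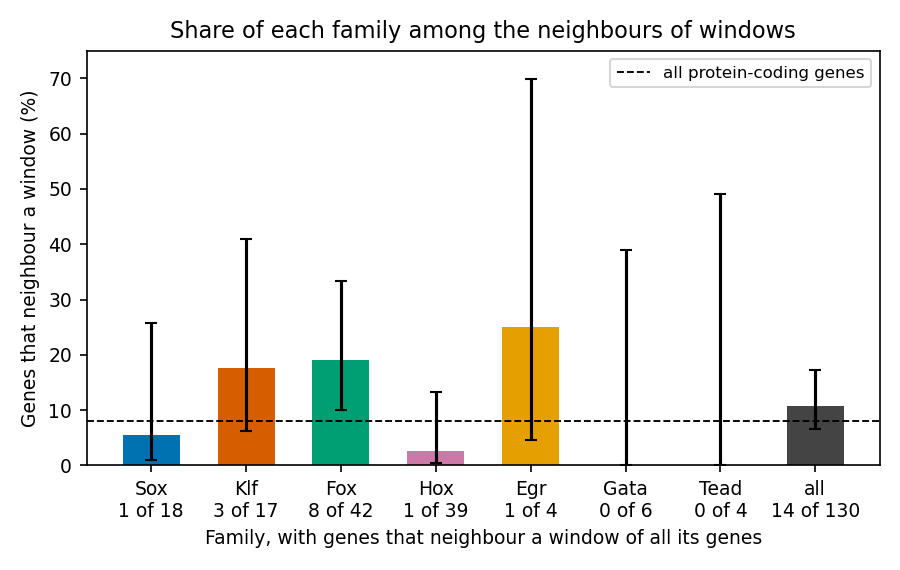
Percentage of the GENCODE genes of each family that neighboured a main-list window (bars; lines are Wilson 95% intervals), with all protein-coding symbols at 7.98% as the dashed line. The interval of the Fox genes (8 of 42) is the only one that lies above the line, and Gata and Tead had no member.

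Partners of these factors were looked up as a list of 22 genes. Of these, 8 (36.4%, 19.7 to 57.0) neighboured 13 windows, beside the 7.98% of all protein-coding symbols. In 6 of the 13 windows the partner had the nearest TSS. Of the 13, 7 were at genes of the Tle family, corepressors that bind both Runx and Fox factors. The list was chosen with earlier results of these data known and is given as a description. A gene with a long stretch around it is more often a neighbour, and the part of the genome nearest to the 22 genes was not measured. The share of the partners is thus not comparable with that of all symbols. Tle1 had 3 windows, at ranks 313, 420 and 816, and had the nearest TSS of all 3. The one at rank 420 was centred 17 bp upstream of that TSS. Tle3 had windows at ranks 32 and 625, and Tle4 at ranks 681 and 589, in each case with the nearest TSS of the latter alone.

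Among the partners of Hox factors, Pbx3 was next to the windows at ranks 14 and 683, 281.3 and 617.9 kb from its TSS, and Meis1 and Pbx4 each had 1 window, at ranks 972 and 952. Nab1, a corepressor of Egr factors, had a window at rank 195, and Zfpm1, a cofactor of Gata factors, had one at rank 633. Of these 5 genes, Zfpm1 alone had the nearest TSS of its window. Cbfb, Yap1, Wwtr1 and Tle2 had none in the main list. Of the Vgll cofactors of Tead, Vgll4 had an intronic window at rank 937 of the IgG-named list alone.

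Members were then compared with all neighbours by distance. Over the 17 pairs of a window and a member, the median distance to the TSS was 139 kb (39.4 to 227), beside 53.2 kb (49.1 to 57.4) over all 2344 pairs. Only the Egr2 pair (1 of 17) was within 5 kb, beside 17.6% of all pairs. Another 6 pairs were at 5 to 50 kb and 10 at 50 to 500 kb, beside 30.9% and 46.0% of all pairs. No member pair exceeded 500 kb, beside 5.42% of all pairs. With only the pairs in which the gene had the nearest TSS, the median was 45 kb (0.579 to 332) for members and 18.8 kb (15.4 to 21.6) for all. The size of the distance thus depended on which neighbours were counted.

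By the authors' location labels, 10 member pairs were upstream of the TSS, 6 downstream of the transcript end and 1 in an intron, and none was in an exon or untranslated region of the member. Over all pairs, 47.4% were upstream, 37.1% downstream and 10.5% in introns. Counted by window, 11 of 16 (68.8%, 44.4 to 85.8) were outside every deposited gene, beside 62.5% of all windows. With the protein-coding genes of GENCODE, 56.2% (33.2 to 76.9) of member windows were outside genes. The windows at ranks 431 and 467 were then in introns. For 4 of 16 windows (25.0%, 10.2 to 49.5) some TSS was within 5 kb, beside 36.5% of all windows. These 4 were the Egr2 window, both windows of Foxb1 and that of Foxd3.

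**Figure D2:**
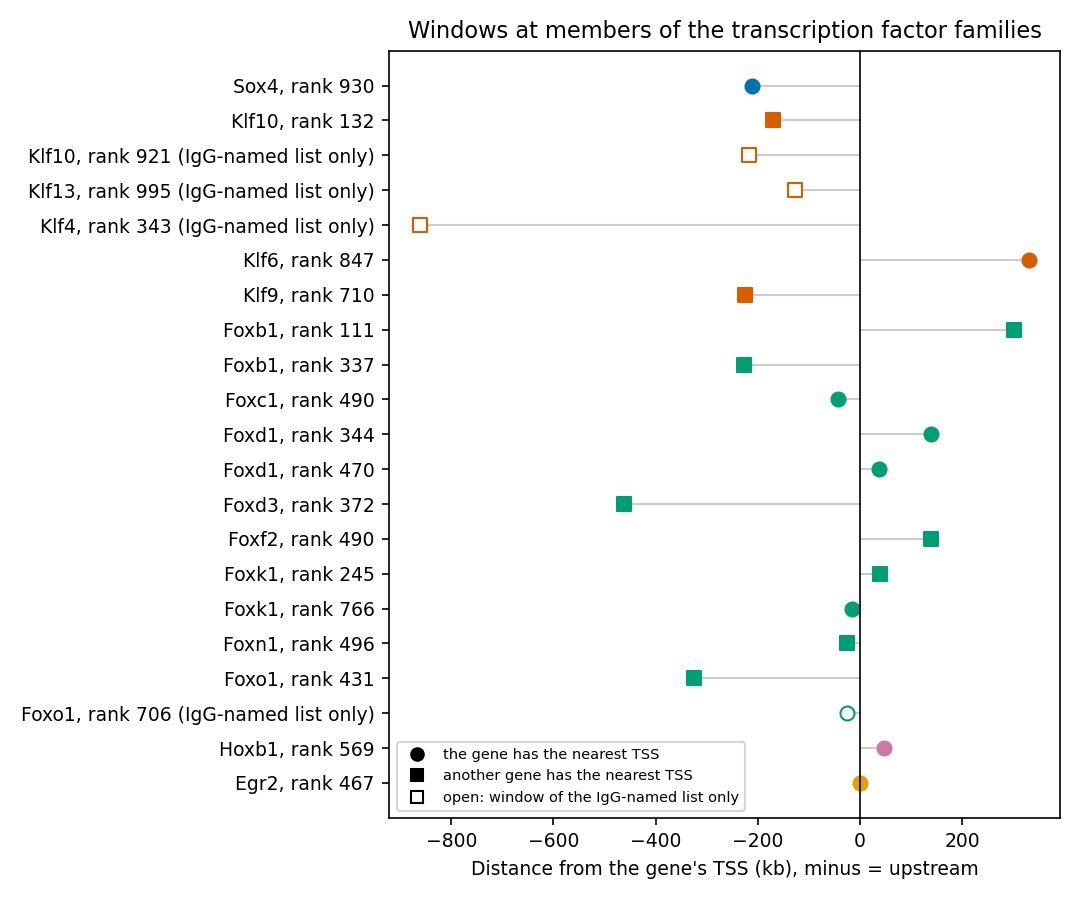
Distance in kb of each window centre from the TSS of its member (minus is upstream), coloured by family. Filled marks are main-list windows, open marks those of the IgG-named list alone, circles have the member at the nearest TSS, and only Egr2 sits at the zero line (579 bp).

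The member windows outside the deposited genes lay in long stretches between these genes. The stretch around them had a median of 253 kb (175 to 412, 11 windows) and a range of 96.9 to 678 kb. Beside this stands a median of 81.3 kb (66.1 to 101) for 617 windows outside genes. The 2 Foxd1 windows share 1 stretch of 278 kb that was counted for both, so the 11 are not independent. The stretches also depend on the deposited genes. GENCODE placed the windows at ranks 431 and 467 in introns and a TSS 699 bp from that at rank 344. The part of the genome nearest to a gene's own TSS had a median of 231 kb for the members, beside 75.9 kb for the 1774 neighbouring genes found in GENCODE. For all family genes it was 51.1 kb and for all protein-coding genes 45.5 kb, whether or not a window fell next to them. A gene with a long stretch is more often a neighbour, so members are not comparable with the last 2 sets. Stretches nearest to a TSS of the 7 families made up 0.846% of the genome, from which 8.46 of 1000 windows would follow. By the nearest GENCODE TSS, 8 (0.8%, 0.406 to 1.57) were found. These are not the same 8 as the member windows with the nearest TSS in the authors' tables. The Foxd1 window at rank 344 was not among them, and a window of a Fox gene outside the rule was.

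When a gene was counted only if it had the nearest TSS of a window, 7 of 130 family genes (5.38%, 2.63 to 10.7) remained, beside 3.65% of all protein-coding symbols. These were Egr2, Foxc1, Foxd1, Foxk1, Hoxb1, Klf6 and Sox4. A window within 100 kb of a TSS, whatever genes lay between, was found for 15 of 130 (11.5%, 7.12 to 18.2), beside 14.5% of all. Of these 15, 9 were not among the neighbours under their symbol, among them Hoxb2, Hoxb3 and Hoxb4, which shared the Hoxb1 window. The median distance to the closest window was 570 kb for family genes and 660 kb for all protein-coding genes. By these measures the families as a whole were near the share of all genes.

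**Figure D3:**
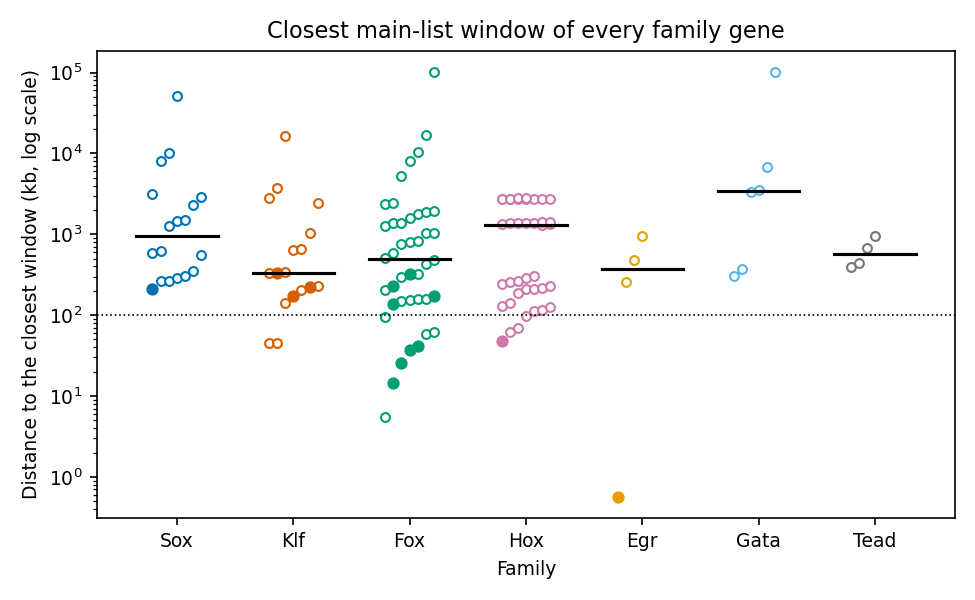
Distance in kb (log scale) from every GENCODE gene of each family to the closest main-list window; filled points are deposited neighbours, bars are family medians and the dotted line is 100 kb. Egr2 is the lowest point, the Hox genes form levels by cluster, and the open Fox point at 5.5 kb is Foxs1, which the authors listed as Fkhl18.

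By rank, the members were spread over the list. The median of the best rank per member was 478.5 (245 to 710), beside 461.5 (438 to 485) for all neighbouring genes. There were 3 member windows in the top 300, 9 in the next 300 and 4 later. None of the 3 in the top 300 (Foxb1, Klf10 and Foxk1) had the member at the nearest TSS. The members with 2 windows were Foxb1, Foxd1 and Foxk1, 3 of 14, and 14.8% of all neighbouring genes had at least 2.

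The lists were compared next. As 1 library gave both, their overlap is no independent evidence. Of the 16 member windows, 15 (93.8%, 71.7 to 98.9) overlapped an entry of the IgG-named list by 1 bp or more, beside 91.2% of all windows. The same position was found for 9 of the 16, beside 704 of all 1000 windows. The shifts reached 38 bp, at the Foxb1 window of rank 111. That window also moved most in rank, to 200, a difference of 89 that was reached or exceeded by 13 shared windows in the whole list. The other rank differences were smaller, down to a gain of 27 places for Klf6 (847 to 820). The median size of the difference was 16 for member windows and 7 for all shared windows.

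In the other direction, 15 of the 19 member windows of the IgG-named list (78.9%, 56.7 to 91.5) were in the main list. Over all windows of that list the share was 91.2%, which lies within this interval. The 4 that were not belonged to Klf4, Foxo1, Klf10 and Klf13. In total, 13 genes were members in both lists and 16 in either.

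**Figure D4:**
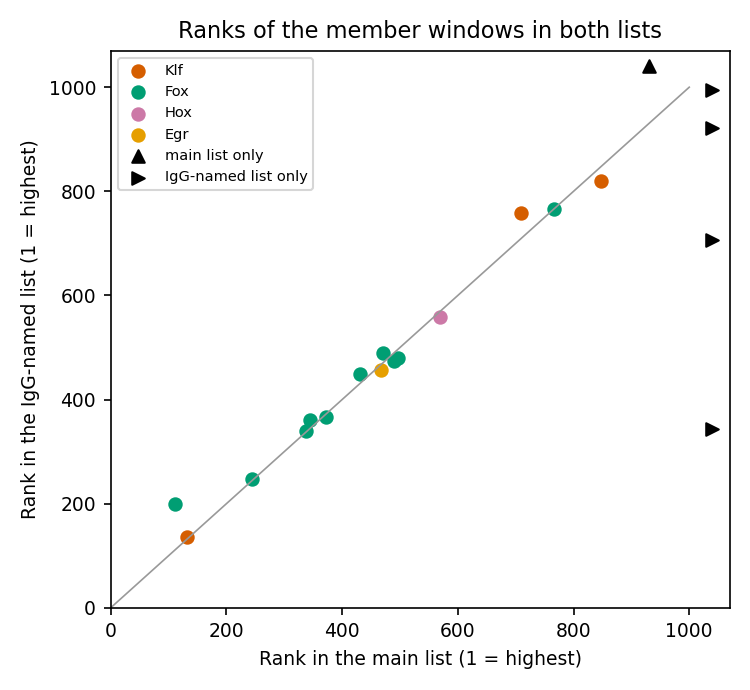
Rank of each shared member window in the main list (x axis) and the IgG-named list (y axis), with the line of equal rank. The Foxb1 window (111 and 200) is farthest from the line; triangles at the margins are the Sox4 window of the main list and the 4 windows of the IgG-named list alone.

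Sequence motifs were counted on both strands. Among the 16 member windows, 10 (62.5%, 38.6 to 81.5) held a Runx motif, beside 66.1% of all windows. In sequences of the same length 500 bp to either side, 3 of 16 on each side held it, and 16.1% and 16% for all windows. When windows were widened to 201 bp, all 16 member windows (100%, 80.6 to 100) held it, beside 834 of 1000 (83.4%, 81.0 to 85.6), and 5 of 16 in either flank of that width. Of the windows without a motif at the original width, all 6 member windows gained one, beside 173 of 339 (51.0%, 45.7 to 56.3) in the whole list. In flanks of that width, 29.8% and 29% of all windows held the motif. For the 6 member windows that gained one, the left flank held it in 1 and the right flank in 4. For the 339 windows the flanks held it in 29.5% and 32.2%.

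Motifs of the families themselves were counted in the same windows, and counts of 0 or 1 in 16 were near what the shares over all windows give. The Tead motif CATTCC occurred 3 times in the Foxb1 window at rank 111 and in no other member window, beside 11.6% of all windows. The Sox motif ACAATG, or the same with A for its T, occurred in the window between Foxc1 and Foxf2, beside 9.20%. The AP-1 motif TGACTCA was in that window and in the one at Klf6, 2 of 16 (12.5%, 3.50 to 36.0), beside 9.10%. In the window between Foxc1 and Foxf2 the AP-1 and Runx motifs were 14 and 27.5 bp from the centre on the same side. At Klf6 they were 10 bp to the right and 16.5 bp to the left.

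No member window held the motifs searched for the other families. The Fox motif TGTTTAC was in 1.10% of all windows. The Gata motif AGATAA was in 1.30% and the Hox motif in 0.5%, with TAATTA as its letters. The Egr motif GCGTGGGCG was in 0.2%, and a Klf motif (GGGCGGGG or GGGTGTGG) in 5.40%. A count of 0 of 16 says only that these letters were not there. The share of G and C had a median of 53.0% over member windows and 54.5% over all windows, and ran from 39.6% at Egr2 to 75.2% at Klf10.

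**Figure D5:**
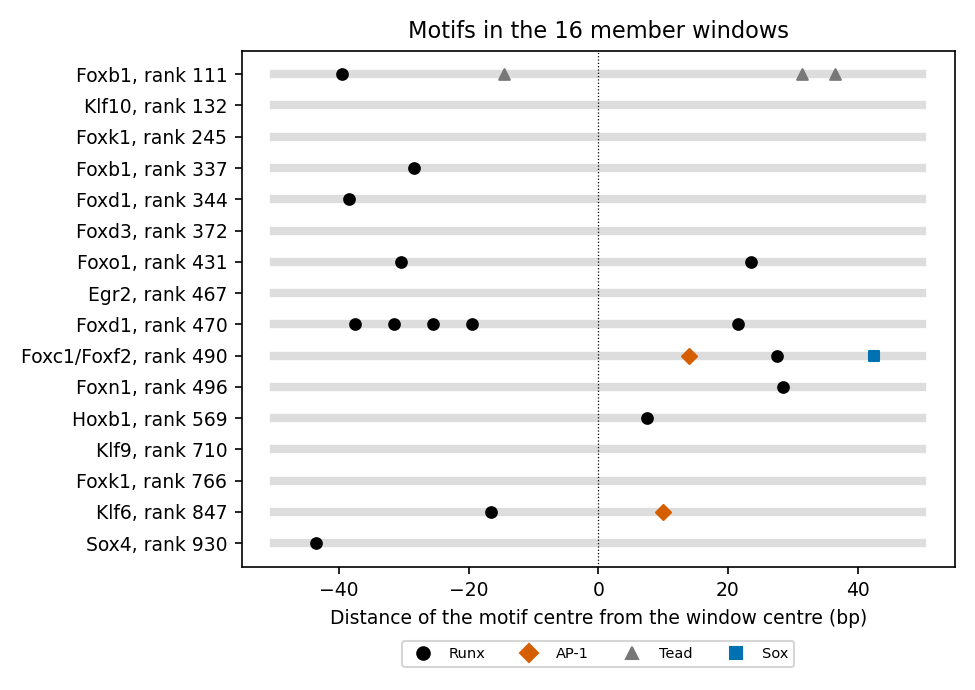
Position of each motif in the 16 member windows (x axis, distance in bp from the window centre; grey bars are the 101 bp windows). Runx motifs (circles) are in 10 windows, with 5 at Foxd1 (rank 470), and 6 windows are empty at this width.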

How the data were processed

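The deposited tables of the RUNX3-FLAG library hold the rank and position of each window and its distances in bp to genes, and no read count, peak height or P value per window was used. According to the study's methods, the authors aligned reads to mm9 with bowtie and called peaks against input with CisGenome 2.0. The control of the IgG-named list was not given in the sources used here. Deposited positions were taken as 0-based with an inclusive end and are printed 1-based. As a check of the build, 21416 of 21666 introns of deposited transcripts (98.8%) began with GT and ended with AG in the NCBIM37 (mm9) reference. Family genes without a window came from GENCODE, and gene IDs from RefSeq.

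There were 3 libraries, 1 per group, so values are counts, shares and medians with no test. Members and lists were chosen with earlier results of these data known. Named genes were the best-ranked member of each family, members with the nearest TSS of a window, with 2 windows or in 1 list alone, and Sox9, Sox5 and Sox6. Others, and the widened sequences, were chosen after their values were seen. Each window was matched to at most 1 window of the other list, by distance between centres. No per-sample column was set aside. In a self-test, 6 of 6 steps gave the known answers. They used simulated data, except for a check of the gene rule on set symbols and a check of distances on the deposited tables. The tools were Python 3.11.15, numpy 2.4.6, pandas 2.3.3, scipy 1.17.1 and matplotlib 3.10.9. The alternatives tried included the top 300 windows, genes with the nearest TSS or deposited as nearest, a limit of 50 kb, and other overlap rules. They also included wider windows, genes and TSSs of GENCODE, and RefSeq gene IDs (added after the data were seen).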

Additional observations from a re-analysis of the deposited data

How the results depend on the processing

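No paired analysis was possible because there was 1 library in each group, and for the same reason no replicate could be left out. A stricter limit on the false discovery rate was not run, since no such value was used here. Over 9 results and 44 alternative values, 26 moved by less than the counting error or, for counts, by less than 1.5 times. In the top 300 windows there were 3 member genes with 3 windows, which were 2.31% of the family genes, with 0% within 5 kb of the member, 100% shared between the lists, 33.3% outside genes and 33.3% with a Runx motif. With only the nearest TSS counted, 7 genes and 8 windows remained (5.38% of family genes), and 100% of these windows were outside genes in the authors' tables. GENCODE placed the Egr2 window among them in an intron of Egr2. Genes deposited as nearest gave 6 genes (without Sox4) and 8 windows, and a limit of 50 kb gave 6 genes, 7 windows and 4.62% of family genes. The share in both lists was 56.2% (33.2 to 76.9) when only identical windows counted, beside 704 of all 1000 windows. The Runx share was 100% in windows widened by 50 bp on each side, beside 83.4% of all windows. With the limit of 50 kb, 8 of the 14 members were lost. Over all pairs of the list, 46.0% were at 50 to 500 kb and 5.42% were farther. No share over all genes was set beside the values for the top 300 or the 50 kb limit. Depth was unknown and set no limit that could be stated.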
